A study of Mus musculus with 4 samples.

Results

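Kupffer cells are the resident macrophages of the liver. They sit in the sinusoids, take up bacteria, ageing red cells and other particles from the portal blood, and depend on signalling through the CSF1 receptor for their survival. Their content in each liver library was read from 10 genes that mark them: *Clec4f*, *Vsig4*, *Cd5l*, *C1qa*, *C1qb*, *C1qc*, *Csf1r*, *Timd4*, *Marco* and *Adgre1*. These were picked by symbol from the 35739 genes of the TPM table (a transcript abundance corrected for transcript length and for the library total), and each symbol matched 1 gene. All 10 averaged 1 TPM or more and were among the 9581 genes tested.

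Liver RNA came from 4 mice, WT replicates 2 and 3 and *Usp21* KO replicates 1 and 3, littermates of 10 to 11 weeks on a normal diet. The KO allele was constitutive, with exons 3 and 4 removed in every tissue, and had been made in 129/Sv ES cells, and the KO alleles were carried on a B6 × 129/Sv mixed background. WT alleles came from B6 parents, so the strain background near the gene cannot be told apart from the genotype. *Usp21* itself measured 4.07 and 6.29 TPM in the WT livers and 1.64 and 2.93 TPM in the KO livers, and transcripts outside the removed exons also count towards it. The liver identity of the samples was clear from *Alb*, the serum albumin gene, at 27475 to 43181 TPM. The labels do not state the sex, and the Y-linked genes *Ddx3y*, *Eif2s3y*, *Kdm5d* and *Uty* were above 0 in all 4 libraries. A second deposited table of the same libraries held 102898 to 148164 reads each, but TPM keeps no depth, so no counting error can be given for these values. With 2 libraries per genotype an exact permutation test of a single gene cannot go below p = 0.333.

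Of the 10 genes, 0 differed between the genotypes in limma on log2(TPM + 1) after Benjamini-Hochberg adjustment over all genes tested, and 0 had an unadjusted p under 0.05. Among all genes tested, 0.0835% had an adjusted p under 0.05. The larger difference lay between the KO libraries themselves. In TPM, all 10 genes were higher in KO replicate 3 than in KO replicate 1, by 1.93-fold to 3.97-fold, and both WT libraries lay between these for most genes. KO replicate 1 was the lowest of the 4 libraries for 9 of the 10 genes, compared with 13.2% of all genes tested. On log2(TPM + 1), KO replicate 3 was at least 2-fold above KO replicate 1 for 8 of the 10, compared with 2.18% of all genes tested. In bulk tissue, fewer Kupffer cells and less of this RNA per cell cannot be told apart.

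**Figure D1:**
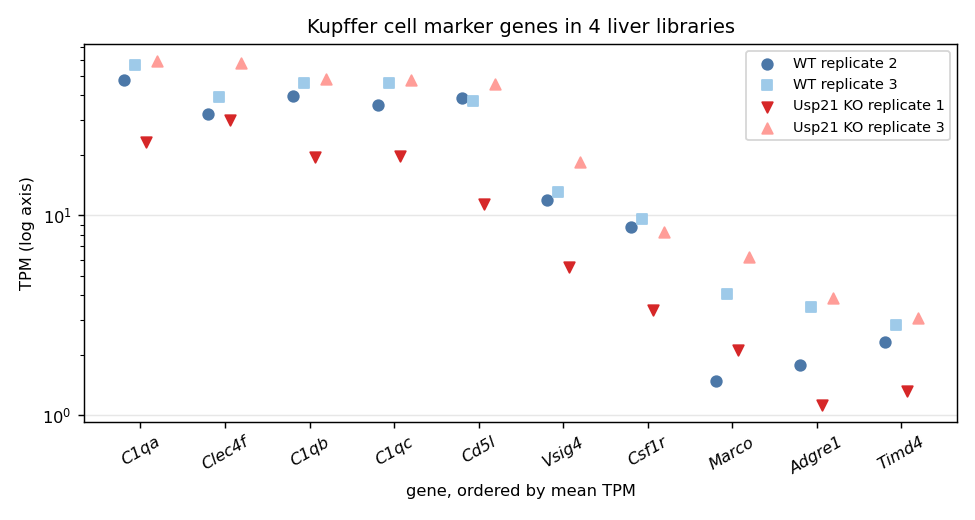
Each point is the TPM (log axis) of a Kupffer cell marker gene in 1 library, with genes ordered by their mean TPM. The dark red triangles of KO replicate 1 are the lowest point for every gene but *Marco*, and the light red triangles of KO replicate 3 are the highest for every gene but *Csf1r*.

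In the GENCODE M21 annotation of GRCm38, the 3 C1q genes form a cluster on the reverse strand of chromosome 4, with *C1qb* at 136880129 to 136886187, *C1qc* at 136889804 to 136893065 and *C1qa* at 136895917 to 136898803. *Clec4f* lies on chromosome 6 (83644542 to 83656187), *Cd5l* on chromosome 3 (87357881 to 87371073), *Vsig4* on the X chromosome (96247203 to 96293438) and *Timd4* on chromosome 11 (46810800 to 46844332). *Marco* is on chromosome 1 (120474538 to 120505024) and *Adgre1* is on chromosome 17 (57358691 to 57483527). These 9 genes are annotated as protein coding, and none overlaps another annotated gene or shares a 31-base stretch of its transcripts with another gene.

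Sequence ahead of the start sites is shown for 4 of the 10 genes, from different chromosomes and with different roles. RefSeq promoter windows around the start sites (GRCm38.p6) were found for 7 of the 10 genes, those of *C1qb*, *C1qc*, *Cd5l*, *Clec4f*, *Marco*, *Timd4* and *Vsig4*. They were searched on both strands for GAGGAA, the core recognised by PU.1 (encoded by *Spi1*), the factor that specifies macrophages, and for TGCTGA, part of the sequence recognised by MAF factors. GAGGAA was present in 5 of the 7 windows, compared with 28.3% of the 32851 windows in the table, and TGCTGA in 5 of the 7, compared with 19.5%. The windows of *Clec4f* and *Timd4* did not hold GAGGAA and are not shown, while all 4 sequences shown hold it. A link between these sequences and the variation of the genes was not tested. The sequences below are the 200 bases before the RefSeq start, 5′ to 3′ on the strand of the gene, with GAGGAA or its reverse complement in capitals. *C1qb* is chr4:136886201-136886400 (reverse strand), *Cd5l* chr3:87357681-87357880 (forward), *Vsig4* chrX:96293439-96293638 (reverse) and *Marco* chr1:120505025-120505224 (reverse).
C1qb: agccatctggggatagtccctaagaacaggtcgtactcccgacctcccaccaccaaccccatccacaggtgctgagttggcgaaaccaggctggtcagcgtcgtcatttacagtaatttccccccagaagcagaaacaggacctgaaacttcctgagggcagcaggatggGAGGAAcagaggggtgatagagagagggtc
Cd5l: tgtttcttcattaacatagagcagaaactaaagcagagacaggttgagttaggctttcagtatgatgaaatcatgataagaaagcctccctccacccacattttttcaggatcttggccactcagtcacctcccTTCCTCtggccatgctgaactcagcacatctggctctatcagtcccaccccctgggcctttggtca
Vsig4: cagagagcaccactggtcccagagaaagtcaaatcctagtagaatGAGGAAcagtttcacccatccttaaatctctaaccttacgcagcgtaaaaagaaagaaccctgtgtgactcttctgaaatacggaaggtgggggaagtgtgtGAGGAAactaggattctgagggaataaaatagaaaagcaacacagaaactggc
Marco: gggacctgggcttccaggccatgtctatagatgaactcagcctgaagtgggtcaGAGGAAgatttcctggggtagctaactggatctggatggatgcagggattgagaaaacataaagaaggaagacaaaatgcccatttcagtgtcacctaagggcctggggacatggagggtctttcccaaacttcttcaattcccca

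Counted from the start site, the core begins at position -30 in *C1qb*, -66 in *Cd5l*, -146 in *Marco*, and -155 and -53 in *Vsig4*, and in none of these does it overlap TGCTGA. A match of 6 letters is a description of the sequence and not a bound site.

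*C1qa*, *C1qb* and *C1qc* encode the chains of C1q, which binds immune complexes and dying cells and starts the classical complement pathway. In liver this protein comes from macrophages, while most other complement proteins come from hepatocytes. *C1qa* measured 47.8 and 56.4 TPM in the livers of WT replicates 2 and 3, and 23.4 and 59.3 TPM in those of KO replicates 1 and 3 (52.1 ± 6.05 against 41.3 ± 25.4 TPM, SD, n = 2 per genotype). *C1qb* measured 39.7 and 46.0 TPM in the WT livers and 19.5 and 48.5 TPM in the KO livers. *C1qc* measured 35.5 and 46.1 TPM in the WT livers and 19.8 and 47.5 TPM in the KO livers. For all 3 chains KO replicate 1 was below both WT libraries and KO replicate 3 above both, so the genotypes overlapped. Their log2 fold changes were -0.47 for *C1qa* (standard error 0.43), -0.46 for *C1qb* (0.42) and -0.39 for *C1qc* (0.41), with adjusted p from 0.690 to 0.733 in limma.

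The proportions of the chains barely differed while their level changed. The ratio of *C1qb* to *C1qa* TPM was 0.830 and 0.816 in the WT libraries and 0.836 and 0.819 in the KO libraries. *C1qc* to *C1qa* ranged from 0.743 in WT replicate 2 to 0.845 in KO replicate 1. The 3 chains together made up 52.0% to 57.5% of the summed TPM of the 10 genes in every library.

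*Vsig4* encodes CRIg, the receptor with which Kupffer cells catch particles coated with complement C3 fragments. It measured 12.0 and 13.2 TPM in the WT livers and 5.53 and 18.5 TPM in the KO livers, a log2 fold change of -0.27 with a standard error of 0.51 (limma adjusted p = 0.857). *Marco*, a scavenger receptor for bacteria and particles, measured 1.48 and 4.04 TPM in the WT livers and 2.11 and 6.18 TPM in the KO livers (log2 fold change 0.42 with a standard error of 0.53, limma adjusted p = 0.776). It was the 1 gene whose lowest library was a WT library, and the 1 gene whose WT libraries were at least 2-fold apart on log2(TPM + 1), so its genotype difference was smaller than the spread within WT. *Timd4* encodes TIM-4, a phosphatidylserine receptor for dying cells that marks Kupffer cells of embryonic origin. It measured 2.34 and 2.84 TPM in the WT livers and 1.33 and 3.05 TPM in the KO livers, with a log2 fold change of -0.22 with a standard error of 0.34 (limma adjusted p = 0.822).

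*Clec4f*, a C-type lectin receptor that in mice is found on Kupffer cells and few other cells, measured 32.1 and 39.2 TPM in the WT livers and 30.05 and 58.0 TPM in the KO livers. KO replicate 1 was close to WT replicate 2 for this gene, and KO replicate 3 stood above the other 3 libraries (log2 fold change 0.23 with a standard error of 0.33, limma adjusted p = 0.804). *Cd5l* encodes a secreted scavenger protein of macrophages, also called AIM, that travels in blood with IgM. It measured 38.8 and 37.3 TPM in the WT livers and 11.4 and 45.5 TPM in the KO livers, the widest gap between the KO libraries among the 10 genes (3.97-fold), while its WT libraries differed by 0.962-fold. Its log2 fold change was -0.70 with a standard error of 0.59 (limma adjusted p = 0.663).

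The proportions among the 10 genes differed between libraries, and which library stood apart depended on the pair of genes. The ratio of *Clec4f* to *Cd5l* was 2.63 in KO replicate 1, compared with 1.28 in KO replicate 3 and 0.827 and 1.05 in the WT libraries. *Clec4f* made up 25.6% of the summed TPM of the 10 genes in KO replicate 1 and 14.6% to 19.4% in the other libraries. *Cd5l* made up 9.73% there and 14.5% to 17.6% elsewhere. For ratios with *Marco* it was WT replicate 2 that stood apart. *Marco* to *Csf1r* was 0.169 in WT replicate 2 and 0.423 to 0.745 in the other libraries, a wider range (4.41-fold) than that of *Clec4f* to *Cd5l* (3.18-fold). Each of these departures rests on 1 library and has no replicate check.

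**Figure D2:**
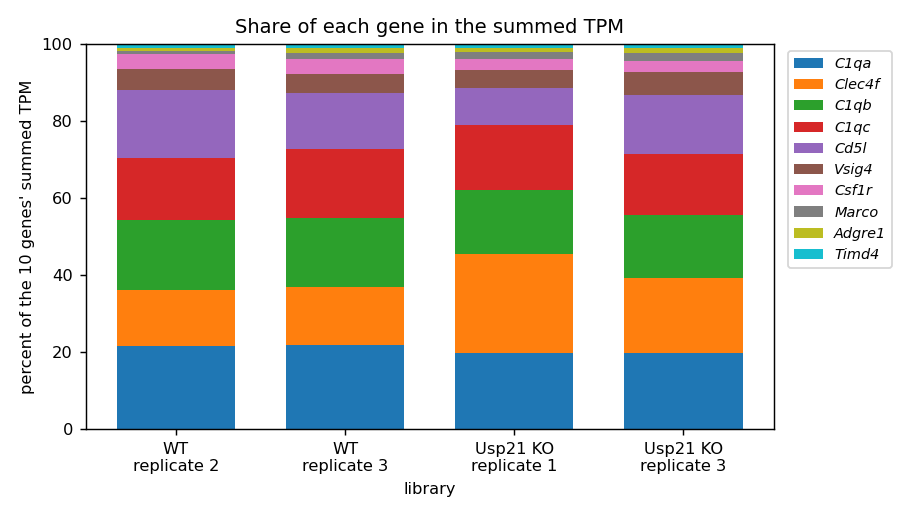
Stacked bars give the share of each of the 10 genes in their summed TPM, 1 bar per library. The segments for the 3 C1q chains are similar in all 4 bars, while the *Clec4f* segment is widest (25.6%) and the *Cd5l* segment narrowest (9.73%) in KO replicate 1.

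*Csf1r* encodes the receptor for the growth factors CSF1 and IL-34, on which macrophages depend. It lies on chromosome 18 (61100598 to 61132149) and overlaps *Hmgxb3* on the opposite strand and the microRNA gene *Mir6983* on its own strand, and 0.380% of its 31-base stretches are shared with another gene. It measured 8.79 and 9.56 TPM in the WT livers and 3.34 and 8.30 TPM in the KO livers, and was the 1 gene of the 10 in which each KO value was under each WT value. Among all genes tested, 45.3% had groups that did not overlap. Its log2 fold change was -0.68 with a standard error of 0.39 (limma adjusted p = 0.542), and it was -0.13 without KO replicate 1. In the second deposited table, read counts scaled to CPM, *Csf1r* was the 1 gene of the 10 with any reads, and there the order of the KO libraries was the opposite. It had 115 and 110.1 CPM (15 and 12 reads) in the WT livers, 107 CPM (16 reads) in KO replicate 1 and 92.2 CPM (10 reads) in KO replicate 3, so KO replicate 3 was the lowest library. The log2 fold change in those values was -0.18, compared with -0.68 in TPM. *Csf1r* was also the only gene of the 10 that overlaps another annotated gene, and the strand setting of these counts is not given. Whether the reads came from *Csf1r* or from *Hmgxb3* was not tested. The other 9 genes were listed at 0 in the second table and could not be compared. *Adgre1* encodes the macrophage antigen F4/80, an adhesion receptor, and measured 1.79 and 3.46 TPM in the WT livers and 1.13 and 3.84 TPM in the KO livers (log2 fold change -0.13 with a standard error of 0.47, limma adjusted p = 0.926).

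In level per length, the genes fell into an upper group of *C1qa*, *Clec4f*, *C1qb*, *C1qc* and *Cd5l*, with means of 33.3 to 46.7 TPM, and a lower group. The order within the upper group changed between libraries, and neighbours in it differed by less than their spread. *Cd5l* was above *Vsig4*, *Vsig4* above *Csf1r* and *Csf1r* above *Marco* in all 4 libraries, although the ranges over libraries overlapped for each pair. *Marco*, *Adgre1* and *Timd4* changed order between libraries.

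The summed TPM of the 10 genes was 220 and 258 in the WT libraries and 118 and 299 in the KO libraries. The mean was 239 ± 26.7 in WT and 208 ± 128 in KO (SD, n = 2 per genotype), a ratio of 0.870 that was smaller than the spread within KO. KO replicate 1 had 49.2% of the WT mean and KO replicate 3 124.8%. The ratio of KO to WT was 0.492 without KO replicate 3 and 1.25 without KO replicate 1. The median log2 fold change of the 10 genes was -0.33, compared with 0.15 over all genes tested. After each library was scaled to an equal upper quartile, these medians were -0.45 and 0.04, a shift of all genes that left the distance between them at -0.49, compared with -0.48 before. Under that scaling KO replicate 3 was above KO replicate 1 by 2.09-fold to 4.30-fold for the 10 genes.

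The direction of the genotype difference rested on which KO library was kept. Without KO replicate 1 the log2 fold change was above 0 for 9 of the 10 genes, and the median was 0.24. Without KO replicate 3 all 10 were below 0, and the median was -1.03. Leaving out either WT library changed the sign of *Marco* (-0.09 without WT replicate 2) and *Adgre1* (0.20 without WT replicate 3) and of no other gene among the 10.

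**Figure D3:**
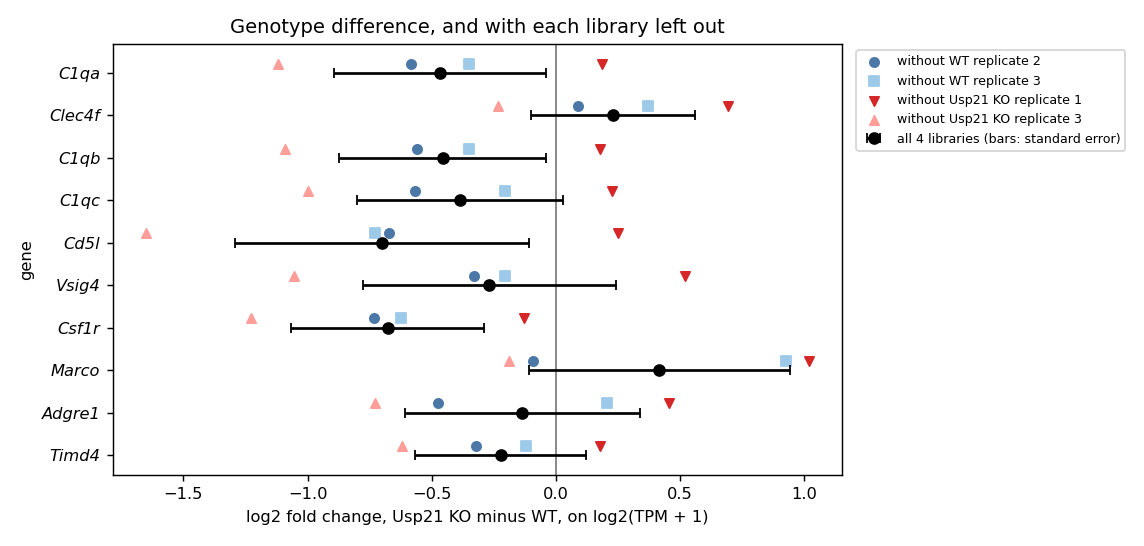
Black points are the log2 fold change of each gene, KO minus WT, on log2(TPM + 1), with bars of 1 standard error, and coloured points are the same with the named library left out. The dark red triangles (without KO replicate 1) lie above 0 for every gene but *Csf1r*, and the light red triangles (without KO replicate 3) lie below 0 for all 10.

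Other genes of the macrophage lineage were then examined. Of 16 listed genes expressed by macrophages in general, 13 were tested. KO replicate 1 was lowest for 12 of these, compared with 13.2% of all genes tested. KO replicate 3 was above KO replicate 1 for all 13, compared with 3371 of the 9581 genes tested. The untested *Ptprc*, *Cd14* and *Itgam* averaged under 1 TPM, and KO replicate 1 was not the lowest library for any of them. *Tyrobp*, which encodes the signalling adaptor DAP12, measured 27.9 and 22.3 TPM in the WT livers and 10.1 and 28.3 TPM in the KO livers. *Laptm5*, a lysosomal protein of blood cells, measured 4.48 and 5.94 TPM in the WT livers and 2.37 and 6.72 TPM in the KO livers. *Fcgr3*, which encodes an Fc receptor, measured 3.30 and 3.54 TPM in the WT livers and 1.56 and 3.90 TPM in the KO livers. *Fcer1g*, which encodes its signalling chain, measured 14.6 and 25.5 TPM in the WT livers and 12.3 and 19.9 TPM in the KO livers. The paper places the human *FCER1G* gene near *USP21*, and a part of the strain background in the *Fcer1g* values was not tested. The genotypes overlapped for all 13, compared with 45.3% of all genes tested whose groups did not overlap. None of the 13 had an unadjusted p under 0.05 in limma, and their median log2 fold change was -0.09.

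Among 10 tested genes of a further list of Kupffer cell genes, KO replicate 1 was lowest for 6, and 0 were called at an adjusted p under 0.05. *Il18bp*, an inhibitor of the cytokine IL-18, measured 6.56 and 6.60 TPM in the WT livers and 3.29 and 7.20 TPM in the KO livers, and *Lilra5*, an activating receptor, measured 1.31 and 1.85 TPM in the WT livers and 0.671 and 1.43 TPM in the KO livers. *Folr2*, *Fcna*, *Clec1b* and *Cd163*, named after their values were seen, were 2.16-fold to 2.93-fold higher in KO replicate 3 than in KO replicate 1. The other 4 genes of the list for which KO replicate 1 was not the lowest library were *Slc40a1*, *Hmox1*, *C6* and *Mrc1*. *Slc40a1*, the iron exporter ferroportin, measured 37.8 and 37.1 TPM in the WT livers and 38.03 and 33.2 TPM in the KO livers. *Hmox1*, the haem-degrading enzyme, measured 8.10 and 15.5 TPM in the WT livers and 10.4 and 13.9 TPM in the KO livers. *C6*, a complement protein, measured 50.1 and 50.3 TPM in the WT livers and 86.5 and 70.3 TPM in the KO livers (log2 fold change 0.63 with a standard error of 0.18, limma adjusted p = 0.464, unadjusted p = 0.0148). *Mrc1*, the mannose receptor, measured 6.65 and 4.97 TPM in the WT livers and 8.003 and 7.97 TPM in the KO livers. Summed over the 11 genes of the list, the level was 154 and 149 TPM in the WT livers and 168 and 185 TPM in the KO livers. This sum, unlike that of the 10 marker genes, was not lower in KO replicate 1 than in WT. *C6* and *Slc40a1* made up most of the sum in KO replicate 1, so it mainly follows these genes and not the 6 for which that library was lowest.

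The listed transcription factors of Kupffer cells did not, as a set, share the pattern of the markers. In bulk liver their values cannot be assigned to Kupffer cells alone, and *Spic* averaged under 1 TPM and was not tested. KO replicate 1 was lowest for 1 of 11 tested, compared with 13.2% of all genes tested. That 1 gene was *Spi1*, the gene of PU.1, with 3.72 and 3.83 TPM in the WT livers and 1.19 and 2.04 TPM in the KO livers. Its highest KO value was under its lowest WT value (log2 fold change -0.89 with a standard error of 0.28, unadjusted p = 0.0204, limma adjusted p = 0.464). Groups did not overlap for 5 of the 11 factors tested, 3 of them higher in KO, compared with 45.3% of all genes tested. *Irf8*, another myeloid factor, measured 1.54 and 2.59 TPM in the WT livers and 1.52 and 0.972 TPM in the KO livers. *Id3* and *Id1*, targets of BMP signalling that sustain Kupffer cells and that other liver cells express as well, were highest in KO replicate 1. *Id3* measured 21.6 and 15.0 TPM in the WT livers and 79.8 and 10.97 TPM in the KO livers, and *Id1* measured 5.48 and 5.06 TPM in the WT livers and 12.9 and 3.36 TPM in the KO livers.

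Of the ligands of *Csf1r*, *Csf1* measured 1.90 and 3.24 TPM in the WT livers and 1.24 and 0.553 TPM in the KO livers (log2 fold change -0.91 with a standard error of 0.34, unadjusted p = 0.0382, limma adjusted p = 0.466). *Il34* measured 0.698 and 0.503 TPM in the WT livers and 1.25 and 1.43 TPM in the KO livers, with a mean under 1 TPM (log2 fold change 0.55 without the filter on low values, unadjusted p = 0.0534). The ligands thus lay on opposite sides of WT in both KO libraries, and neither passed the adjusted threshold. Groups did not overlap for 45.3% of all genes tested. Of 7 tested ligands of the sinusoidal niche, 0 were called, and *Gdf2* (BMP9), *Vcam1* and *Tgfb1* had log2 fold changes of 0.17 to 0.25.

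The partners of C1q in the complement cascade, which hepatocytes make, did not follow the C1q chains. *C1ra* measured 113.5 and 116.8 TPM in the WT livers and 128.6 and 127.2 TPM in the KO livers, and *C1s1* measured 101.7 and 128.04 TPM in the WT livers and 128.01 and 134 TPM in the KO livers. These encode the proteases that C1q activates. Of 12 tested genes in this list KO replicate 1 was lowest for 1, and 0 were called. The log2 fold change was above 0 for 10 of them (median 0.10), compared with 6394 of the 9581 genes tested (median 0.15). *C2*, the next protease of the pathway, measured 20.6 and 34.5 TPM in the WT livers and 37.2 and 42.2 TPM in the KO livers. *C4bp*, an inhibitor of C4b, had a log2 fold change of -0.18 (limma adjusted p = 0.687).

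Of 8 tested phagocytic and scavenger receptors, which several liver cell types express, KO replicate 1 was lowest for 2. *Msr1*, the scavenger receptor A of macrophages, was 1 of these, with 1.73 and 1.51 TPM in the WT livers and 1.11 and 3.76 TPM in the KO livers. *Scarb1*, *Lrp1* and *Stab1*, which hepatocytes or endothelium express, had log2 fold changes of 0.62, 0.48 and 0.37. Each KO value exceeded each WT value for these 3 of the 8, compared with 3292 of the 9581 genes tested. Of the list, 0 were called.

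Genes that mark macrophages recruited from monocytes were mostly too low to test, with 4 of 12 tested. *Ccr2*, *Cx3cr1*, *Ly6c2*, *Itgax* and *Gpnmb* were each under 2 TPM in all libraries, and *Chil3* was listed at 0. *Trem2*, also too low to test, measured 0.568 and 1.21 TPM in the WT livers and was listed at 0 in both KO livers. *Fabp5*, *Cd9* and *Spp1*, which other liver cells express too, were highest in KO replicate 1. *Fabp5* measured 6.80 and 10.2 TPM in the WT livers and 63.2 and 13.1 TPM in the KO livers (log2 fold change 1.69 with a standard error of 0.70, limma adjusted p = 0.478). *Cd9* measured 13.1 and 7.42 TPM in the WT livers and 29.7 and 16.7 TPM in the KO livers, and *Spp1* measured 13.2 and 12.7 TPM in the WT livers and 33.4 and 20.7 TPM in the KO livers. The remaining tested gene, *Plac8*, went the other way and was lowest in KO replicate 1. It measured 5.04 and 5.42 TPM in the WT livers and 3.97 and 5.83 TPM in the KO livers. Summed over the list, KO replicate 1 had 134 TPM and the other libraries 38.6 to 57.0 TPM, and *Fabp5*, *Spp1* and *Cd9* made up most of the sum in KO replicate 1.

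Markers of other liver cells were summed in the same way. Sinusoidal endothelial markers, the cells that line the same vessels, came to 90.5 and 67.1 TPM in the WT livers and 79.8 and 103.7 TPM in the KO livers, so KO replicate 1 lay within the WT libraries. It was lowest for 2 of the 13 tested endothelial genes, and *Lyve1*, a hyaluronan receptor, had the largest log2 fold change in this list (0.98). Stellate cell markers came to 139 and 98.9 TPM in the WT livers and 202 and 136 TPM in the KO livers, and KO replicate 1 was lowest for 0 of 10. *Rgs5*, a gene of stellate cells and pericytes, measured 3.81 and 2.62 TPM in the WT livers and 13.6 and 8.58 TPM in the KO livers (log2 fold change 1.51 with a standard error of 0.31, limma adjusted p = 0.405). Hepatocyte markers came to 71159 and 56915 TPM in the WT livers and 60520 and 49968 TPM in the KO livers, and red cell markers to 911 and 892 TPM in the WT livers and 901 and 719 TPM in the KO livers. *Alb* was the largest part of each hepatocyte sum. Of the 9 hepatocyte genes, 6 had a log2 fold change above 0 (median 0.24), compared with 6394 of the 9581 genes tested (median 0.15). KO replicate 1 was lowest for 0 of the 9 hepatocyte and 0 of the 5 red cell genes. The part of these cell types in the difference between the KO libraries was not tested.

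**Figure D4:**
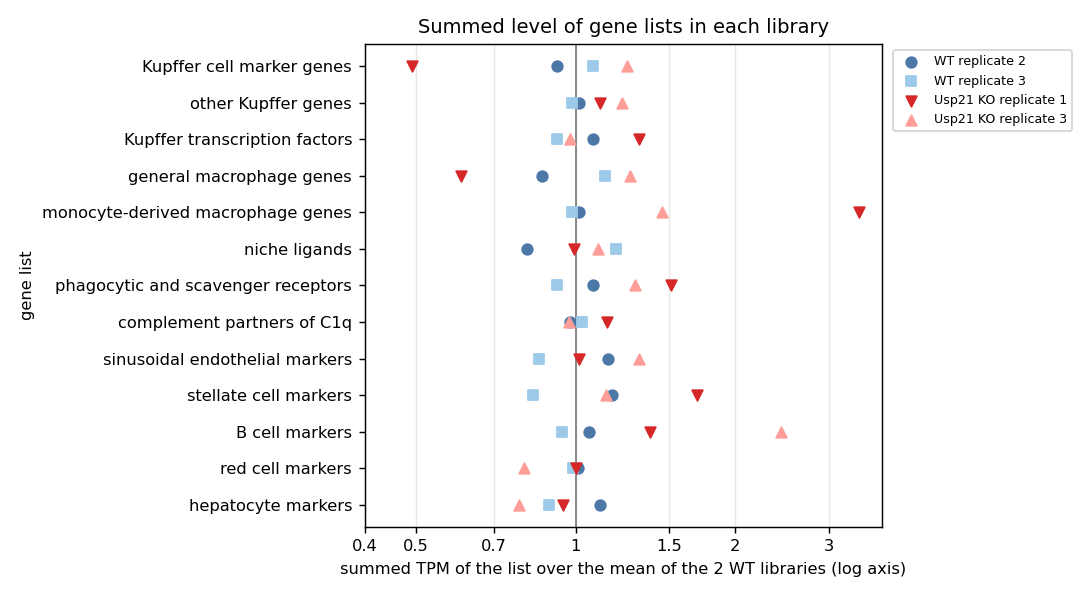
Each point is the summed TPM of a gene list in 1 library over the mean of the 2 WT libraries (log axis). Lists with a summed TPM under 50 in every library are left out, except those of niche ligands and B cells. KO replicate 1 (dark red) has 0.492 for the Kupffer cell marker genes and 0.607 for the general macrophage genes, but 1.11 for the other Kupffer cell genes. *C6* and *Slc40a1* make up most of that last sum. In KO replicate 1 the 3.42 for the monocyte-derived macrophage list comes mostly from *Fabp5*, *Spp1* and *Cd9*.

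The 5 genes with the profile most like the mean of the 10 were taken from the other 5815 genes that averaged 5 TPM or more, by the root-mean-square difference of centred log2(TPM + 1) over the 4 libraries. They were *Faf1* (0.0431), *Irf7* (0.0566), *Gm9762* (0.103), *Dnajc13* (0.125) and *H2ac18* (0.134). *Irf7*, a transcription factor of the interferon response, measured 13.3 and 15.6 TPM in the WT livers and 7.95 and 19.2 TPM in the KO livers. *Faf1* measured 12.0 and 16.0 TPM in the WT livers and 7.01 and 17.0 TPM in the KO livers. With 4 points per profile, such likeness is a description of these libraries.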

How the data were processed

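Liver RNA-seq of 4 libraries was grouped by genotype and replicate number from the labels. The authors quantified reads with salmon (mm10) and deposited TPM summed per Ensembl gene for 35739 genes, with a second table of log2(TPM + 1). The authors also deposited HTSeq counts per gene scaled by TMM (edgeR), a count-based signal in CPM, and its log2 values. Versions, annotation release and strand setting are not given in the sources used here. The log2 tables were used only to check the scale. Of the CPM values, 100% were whole multiples of 1 read within 0.02 reads (102898 to 148164 reads per library), but 428 of the 682 genes whose TPM reached 100 in all 4 libraries had a CPM of 0 throughout, so TPM was used.

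Genes averaging 1 TPM or more (9581) were tested with limma 3.58.1 (moderated variances with trend, prior degrees of freedom 3.62) on log2(TPM + 1). Tests were two-sided and p-values were adjusted by the Benjamini-Hochberg method. No batch was given. Nothing in the labels beyond the mouse numbers describes how the replicates were taken, so p-values measure the spread between these samples. The script was tested on simulated data. Alternatives were other pseudocounts and filters, upper quartile scaling, no moderation, each library left out, the CPM values, and edgeR 4.0.16 and DESeq2 1.42.0 on the recovered reads. The counts of genes apart between the KO libraries were rerun under 3 settings chosen after seeing the data.

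The genes and lists were chosen with earlier results of these data known. The genes named are the 10 members, *Usp21*, up to 4 genes per list with the largest absolute log2 fold change, the ligands of *Csf1r*, the proteases of C1 and the 5 most similar genes. Others were named after their values were seen, and 1 gene that this rule names is not reported here. The lists cover Kupffer cell genes and transcription factors, macrophages, monocyte-derived cells, niche ligands, scavenger receptors, complement, endothelium, stellate cells, cholangiocytes, T and NK, B and dendritic cells, neutrophils, red cells, hepatocytes and Y-linked genes.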

Additional observations from a re-analysis of the deposited data

How the results depend on the processing

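The number of the 10 genes with an adjusted p under 0.05 was 0 under every alternative that kept all libraries. Fits with a library left out leave 1 library in a genotype, so only their effect sizes are given. With a minimum mean of 5 TPM 7 of the 10 were tested, and among the CPM values 1 was. The other 9 were listed at 0 there in all libraries, and *Csf1r* had 15 and 12 reads in WT and 16 and 10 reads in KO. Its log2 fold change was -0.18 in limma (adjusted p = 0.896), -0.17 in edgeR (0.890) and -0.19 in DESeq2 (0.998), compared with -0.68 in TPM, and KO replicate 1 was above KO replicate 3 there. Whether those reads came from *Csf1r* or from the overlapping *Hmgxb3* was not tested. Over all genes, edgeR called 12 and DESeq2 1 of 5146 on the recovered reads, and limma without moderation called 0 of 9581 (806 at an unadjusted p under 0.05). No sign changed with another pseudocount, filter, scaling or variance. With each library left out, the log2 fold change ranged from -0.73 to 0.46 for *Adgre1*, -1.12 to 0.19 for *C1qa*, -1.09 to 0.18 for *C1qb*, -0.998 to 0.23 for *C1qc*, -1.65 to 0.25 for *Cd5l*, -0.62 to 0.18 for *Timd4*, -1.06 to 0.52 for *Vsig4*, -0.23 to 0.69 for *Clec4f* and -0.19 to 1.02 for *Marco*. The KO to WT ratio of the summed TPM ranged from 0.492 without KO replicate 3 to 1.25 without KO replicate 1, and the median log2 fold change from -1.03 to 0.24. The number of genes at least 2-fold higher in KO replicate 3 than in KO replicate 1 was 8, 9 with upper quartile scaling or 0.1 as the pseudocount, and 5 when the pseudocount was 5, which shrinks the differences of low genes. No paired analysis was possible because the genotypes share only replicate number 3.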

Other observations

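Markers of other blood cells were low and differed between single libraries. Of 9 neutrophil markers 2 were tested. *S100a8*, a calcium-binding protein of neutrophils, measured 2.26 and 29.1 TPM in the livers of WT replicates 2 and 3, and 1.12 and 0.738 TPM in those of KO replicates 1 and 3, and *S100a9*, its partner, measured 0.425 and 12.7 TPM in the WT livers and 3.04 and 1.11 TPM in the KO livers, so WT replicate 3 stood above the other 3 libraries for both. Of 6 B cell markers 2 were tested, both immunoglobulin genes. *Igkc* measured 10.6 and 8.90 TPM in the WT livers and 12.4 and 26.1 TPM in the KO livers, and *Ighm*, whose product IgM carries the *Cd5l* protein in blood, measured 1.39 and 2.90 TPM in the WT livers and 5.32 and 7.89 TPM in the KO livers (log2 fold change 1.30 with a standard error of 0.34, unadjusted p = 0.0105, limma adjusted p = 0.464). Of 11 T and NK cell markers 2 were tested, with summed levels of 5.84 to 8.30 TPM over the libraries, and of 6 cholangiocyte markers 1 was, with 1.39 to 4.91 TPM. The 6 dendritic cell markers were all under 1 TPM in every library.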
